A study of Mus musculus with 32 samples.

Results

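Gene expression was compared between day 2 and day 4 of retinal organoid differentiation in 1 kind of culture, mouse cells labelled as a Mettl3 knockout that carry a METTL3 fusion protein moved to the nucleus with dexamethasone (Dex). The 4 libraries of this comparison, 2 at each day, were chosen by their labels from the 32 of the series. Every row of the deposited table was considered, and 16276 of its 55492 rows passed the filter on low values and were tested.

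All cells of the series derive from Rx:GFP, mouse stem cells named for a fluorescent reporter of Rx (Rax). The cultures compared here carry a Mettl3 knockout in that line and overexpress wild-type METTL3 joined to a domain the labels call GRBD. Per the design text, this fusion is cytosolic without Dex and nuclear with it. Dex is a synthetic glucocorticoid and was given at 10 µM. The 4 libraries also shared 0.1 µM of an agent the labels call AGN, which all cultures received at days 2, 4 and 6. Other cultures with the same 2 days served for comparison: the fusion line without Dex ("no Dex"), the Rx:GFP line ("WT") and the line labelled Mettl3 KO ("KO"), the last 2 without Dex. No culture without the fusion received Dex, so what Dex does through the cells' own receptors and what it does through the fusion cannot be told apart. How many clones stand behind each line is not stated in the labels. The duplicates are described as independent rounds of library preparation, and separate cultures are not stated, so p-values measure the spread between these samples, which may be technical.

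METTL3 is the catalytic subunit of the complex that writes N6-methyladenosine (m6A) on RNA. This mark is read by YTH domain proteins and is known in stem cells for its part in the turnover of transcripts of the pluripotent state. In the embryo the retina arises from the eye field, a patch of anterior neural plate marked by the transcription factors Rax, Six3, Pax6, Lhx2 and Six6. Stem cell aggregates grown as organoids pass through the same order of states, leaving pluripotency, forming neuroepithelium and then switching on eye field genes.

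Values are FPKM (fragments per kilobase of transcript, scaled to the mapped fragments of the library). Estimated depth of the 4 libraries ran from 31700000 to 40200000 fragments, within 27200000 to 51700000 fragments over the whole series. A gene of 2 kb with 3 fragments would read 0.043 to 0.055 FPKM in these libraries, which sets the limit for genes near 0 and covers counting error only. Duplicates correlated across genes at Pearson r = 0.9946 at day 2 and 0.9933 at day 4, against 0.9922 to 0.9955 over all 16 groups. The targeted gene, Mettl3 (ENSMUSG00000022160, GRCm38 chromosome 14, 52294841 to 52305128, minus strand), read between 32.5 and 41.2 FPKM in the 8 WT libraries and between 34.9 and 43.8 FPKM in the 8 libraries labelled KO, which overlap. The labels do not say which bases were deleted, and a value summed over the whole gene does not check a deletion that leaves the transcript in place. In the fusion line, where transcripts of the construct can also count as Mettl3, it was 53.8 and 50.9 FPKM at day 2 and 49.8 and 51.0 FPKM at day 4 with Dex, and the days overlapped (log2 change -0.05 ± 0.06, adjusted p = 0.468).

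From day 2 to day 4 the cultures with Dex lost transcripts of the pluripotent state and gained those of anterior neural plate and eye field. Six3 rose to 128 and 126 FPKM from values close to the detection limit, Rax and Lhx2 rose with it, and Pou5f1 fell 9.41-fold. Of the 16276 tested genes, 10860 (66.7%) were called at an adjusted p under 0.05 by limma, a linear model across all genes fitted on log2(FPKM + 1). Of all tested genes 6661 (40.9%) rose and 4199 (25.8%) fell. By at least 1 on the log2 scale, 1073 (6.59%) rose and 682 (4.19%) fell. The libraries of the 2 days did not overlap in 10839 of the 10860 called genes (66.6% of those tested), so a lack of overlap adds little to a call. Over all tested genes, called or not, both day 4 libraries lay above both day 2 libraries in 48.9% and below them in 33.0%. Each count below is to be read against these shares, because a call by itself was made for most genes. Higher genes were 61.3% of the calls as deposited and 51.6% (34.1% of tested genes higher, 32.1% lower) after rescaling the libraries by median-of-ratios factors, a step that moved the median change of all genes from 0.09 to 0.00. All changes below are differences on the log2(FPKM + 1) scale with their standard error (± SE). On this scale a change between low values looks smaller than it is as a ratio. "Rose" and "fell" are used of called genes.

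Of the 10 eye field genes, 8 rose, none fell and 2 were not called (8 and 1 after rescaling). Their median change was 3.36, against 0.09 over all tested genes. Six3 (ENSMUSG00000038805, GRCm38 chromosome 17, 85613608 to 85629302, plus strand) is a homeodomain factor that keeps the anterior forebrain and eye free of Wnt signalling. It read 0.20 and 0.10 FPKM at day 2 and 128 and 126 FPKM at day 4. Both day 2 libraries lay close to the detection limit and far under the day 4 libraries. The change, 6.80 ± 0.07 (adjusted p = 4.21e-23), was the largest rise under the rule by which genes were named. Reads of Six3 and of its antisense partner Six3os1 cannot be told apart where strand handling is not given. Six3os1 moved from 0.11 and 0.05 to 14.2 and 15.8 FPKM.

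Rax, the homeodomain factor after which the reporter line is named, read 0.31 and 0.22 FPKM at day 2 and 74.2 and 74.8 FPKM at day 4. The days were far apart (change 5.90 ± 0.06, adjusted p = 8.22e-23). The deposited row for the green fluorescent reporter moved from 0.06 and 0.13 to 66.5 and 66.9 FPKM (5.95 ± 0.20, adjusted p = 2.07e-15), with no overlap between the days. Lhx2 (ENSMUSG00000000247, GRCm38 chromosome 2, 38339281 to 38369733, plus strand), a LIM homeodomain factor needed for the optic vesicle to form, read 0.36 and 0.52 FPKM at day 2 and 66.0 and 68.8 FPKM at day 4. It rose by 5.57 ± 0.14 (adjusted p = 2.42e-17). Pax6 (ENSMUSG00000027168, GRCm38 chromosome 2, 105668900 to 105697364, plus strand), the paired-box factor whose mutation gives the small eye phenotype, moved from 1.75 and 1.58 to 41.5 and 39.6 FPKM. Its rise of 3.96 ± 0.15 (adjusted p = 1.58e-14) left both day 4 libraries above both day 2 libraries.

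Hesx1, a repressor of the anterior neural plate and pituitary primordium, moved from 3.20 and 3.21 to 159.9 and 165 FPKM and reached the highest day 4 level of the list's genes after Otx2. Otx2, an anterior homeodomain factor that is also active in primed pluripotent cells, was abundant at both days. It moved from 133 and 135 to 223 and 218 FPKM and rose by 0.72 ± 0.03 (adjusted p = 4.8e-14), a small change next to that of Six3. Mab21l2, needed for lens and optic cup growth, moved from 1.01 and 1.01 to 12.3 and 12.9 FPKM. Nr2e1 was called on values near the limit, from 0.01 and 0 to 0.31 and 0.13 FPKM, and was no longer called without day 4 replicate 1 (0.17, adjusted p = 0.0683). Six6, the homeodomain factor that follows Six3 in the optic vesicle, was not called at 0.18 and 0.10 FPKM at day 2 and 0.17 and 0.17 FPKM at day 4. Tbx3 was not called either (-0.37, adjusted p = 0.0512). Eye field expression at day 4 thus held Six3, Rax, Lhx2, Pax6, Hesx1 and Otx2 at 39.6 FPKM or more in both libraries, with Six6 under 0.2 FPKM.

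Genes of later eye regions divided between those that rose and those not called. Among 19 tested genes of optic vesicle patterning, 9 rose, none fell and 10 were not called, with a median of 0.15. After rescaling, 8 were called higher and 2 lower. Pax2, a marker of the optic stalk and of the midbrain border, rose from 0.07 and 0.04 to 9.45 and 9.29 FPKM (3.30 ± 0.05, adjusted p = 1.15e-20). Sox9, a progenitor factor, rose from 0.31 and 0.28 to 13.1 and 13.7 FPKM. Mitf, the regulator of pigment epithelium, was at 0.70 and 0.60 FPKM at day 2 and 0.51 and 0.49 FPKM at day 4 and was not called (adjusted p = 0.114). Aldh1a1 and Aldh1a3, retinoic acid enzymes of the dorsal and ventral retina, lay between 0 and 0.1 FPKM.

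Markers of differentiated eye cells gave little signal. Of 12 genes of retinal neurons and photoreceptors, 8 passed the filter, and Atoh7, Nrl, Rcvrn and Ptf1a did not, with no library of the 4 above 0.25 FPKM. In that list Otx1, better known as a forebrain gene, moved from 0.22 and 0.18 to 21.8 and 20.8 FPKM (4.21 ± 0.04, adjusted p = 4.14e-23), Crx rose from 0.02 and 0 to 0.93 and 0.88 FPKM and Prox1 rose from 0.09 and 0.12 to 0.50 and 0.54 FPKM. Neurod1, Pou4f1 and Pou4f2 fell, with changes of -1.04, -0.64 and -0.34. Of 13 pigment cell genes 6 passed the filter, with 1 higher (Rab38, 0.80) and 1 lower (Mlana, -0.87), and Tyr and Oca2 were listed at 0 in all 4 libraries. The summed level of the 6 tested pigment genes was 8.04 and 6.75 FPKM at day 2 and 8.19 and 8.97 FPKM at day 4.

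**Figure D1:**
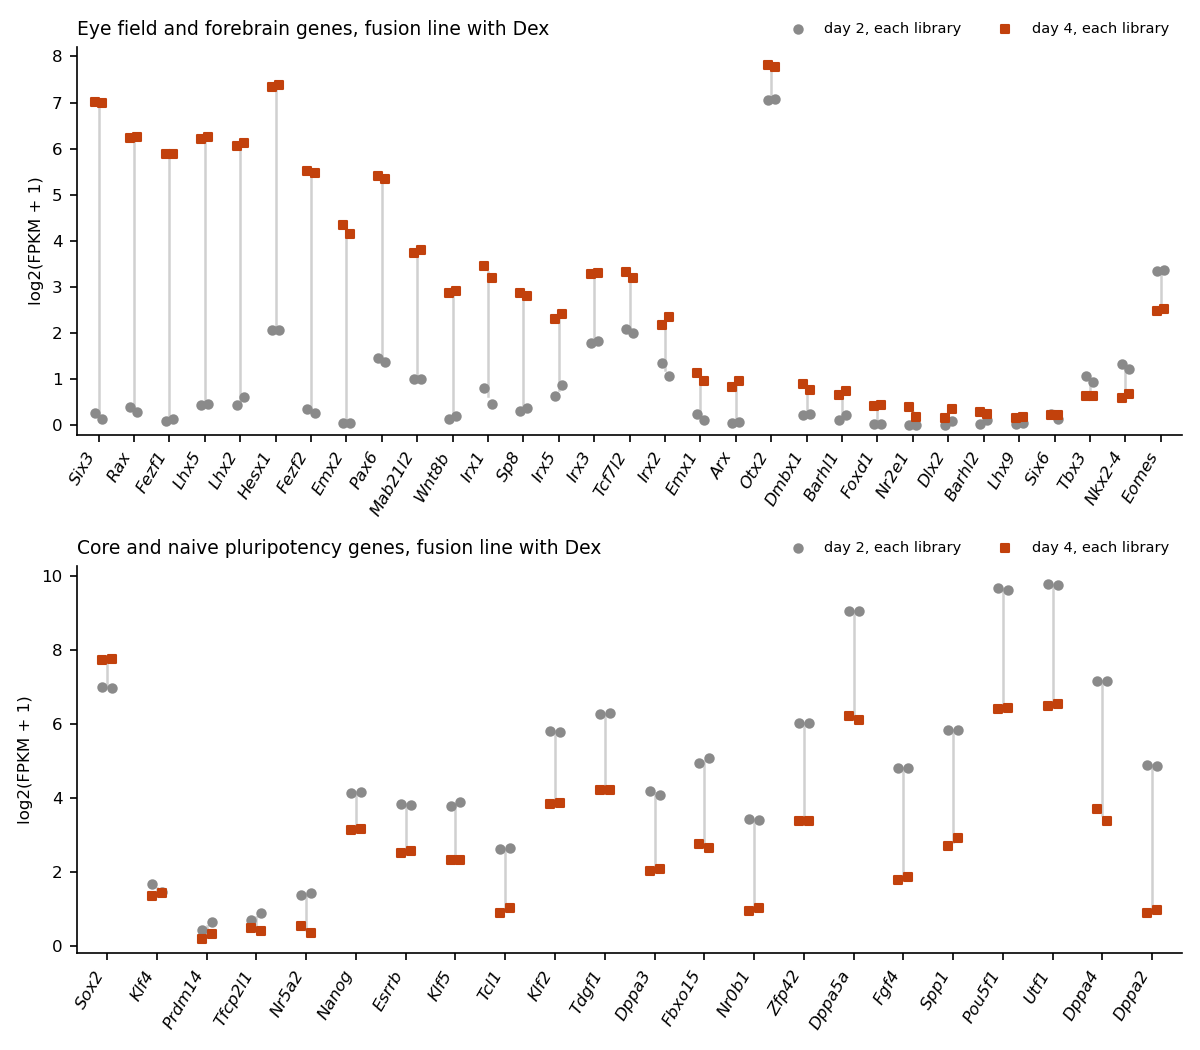
Level of most eye field, telencephalon and diencephalon genes tested (top) and of 22 pluripotency genes (bottom) in each of the 4 libraries of the fusion line with Dex, on a log2(FPKM + 1) axis, with day 2 and day 4 in different colours and 1 point per library. Six3, Rax, Lhx2, Lhx5 and Fezf1 sit near 0 at day 2 and above 57 FPKM at day 4, Pou5f1 and Utf1 fall from 787 FPKM or more to 91.7 FPKM or less, and duplicates lie close together.

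The rise extended beyond the eye to other anterior regions. Of 10 tested telencephalon genes, 9 rose and 1 fell (8 and 1 after rescaling). Among the 9, the call of Lhx9 (0.14) was lost when any 1 of the 4 libraries was left out. That of Dlx2 (0.2) was lost without day 2 replicate 1 (0.17) or day 4 replicate 2 (0.11). Fezf1 and Fezf2, zinc finger factors of the anterior forebrain, led the list. Fezf1 moved from 0.06 and 0.10 to 58.5 and 57.8 FPKM (5.78 ± 0.05, adjusted p = 4.49e-24) and Fezf2 moved from 0.27 and 0.20 to 44.4 and 43.2 FPKM (5.18). Emx2, a factor of the dorsal telencephalon, moved from 0.03 and 0.03 to 19.3 and 16.8 FPKM. Eomes fell (-0.86); it is also a mesendoderm and trophoblast gene and stands in all 3 lists.

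Of 13 tested diencephalon genes, 12 rose and Nkx2-4 fell (-0.65), with a median of 1.21. Lhx5, a LIM factor that restrains Wnt signalling in the anterior plate, moved from 0.36 and 0.38 to 72.5 and 75.0 FPKM (5.77 ± 0.06, adjusted p = 3.22e-23). Wnt8b, a ligand made in the forebrain midline, moved from 0.10 and 0.15 to 6.30 and 6.49 FPKM. The Iroquois factors, which mark tissue behind the eye field, rose to lower levels: Irx1 from 0.76 and 0.37 to 9.98 and 8.19 FPKM, Irx3 from 2.45 and 2.55 to 8.67 and 8.80 FPKM and Irx5 from 0.55 and 0.84 to 3.91 and 4.30 FPKM. Both days were apart for each of the 3 genes. Among 13 tested genes of midbrain and hindbrain, 7 rose and 2 fell. Wnt1 moved from 0 and 0 to 4.25 and 4.19 FPKM and En1 from 0.74 and 0.51 to 3.15 and 2.97 FPKM, both marks of the midbrain border. Gbx2, a factor of the anterior hindbrain that is also active in stem cells, fell from 4.37 and 4.70 to 0.26 and 0.36 FPKM (-2.08 ± 0.07, adjusted p = 4.13e-15). Hoxb1 and Hoxa2, hindbrain genes, did not pass the filter, with at most 0.06 FPKM.

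The 15 largest rises under the naming rule were Six3, Rax, Foxd4, Fezf1, Lhx5, Lmo1, Lhx2, Hesx1, Fezf2, Shisa2, Frzb, Robo3, Scube1, Irs4 and Otx1. Foxd4, a forkhead factor of the early neural plate, moved from 0.41 and 0.30 to 79.4 and 77.6 FPKM. Shisa2, which holds back Wnt and FGF receptors inside the cell, moved from 2.94 and 3.26 to 141 and 145 FPKM and Frzb, a secreted Wnt antagonist, moved from 0.21 and 0.20 to 32.4 and 32.5 FPKM. Lmo1, a LIM-only transcriptional partner protein, moved from 0.23 and 0.41 to 65.3 and 65.3 FPKM (5.65 ± 0.09, adjusted p = 2.88e-20). The promoters of these genes were read from RefSeq (build GRCm38.p6; 250 bases before the annotated start), where 12 of the 15 had an entry. The homeodomain core TAATTA, searched on both strands, occurred in 2 of the 12, Lmo1 and Robo3, in 0 of the 11 largest falls with an entry, in 2 of 15 genes of core and naive pluripotency, and in 5.65% of all 27025 genes. A match is a description of the letters and not of a bound site. The Lmo1 window (chr7:109175208-109175457, minus strand) is shown because this gene is among the largest rises, with the motif in capitals at 186 to 181 bases before the start:
Lmo1: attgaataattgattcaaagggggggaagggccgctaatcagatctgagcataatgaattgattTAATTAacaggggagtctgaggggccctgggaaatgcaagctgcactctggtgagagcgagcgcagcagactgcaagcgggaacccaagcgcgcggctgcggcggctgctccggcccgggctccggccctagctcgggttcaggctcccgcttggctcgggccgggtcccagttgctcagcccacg

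Pluripotency genes fell as a group. Of 22 genes of core and naive pluripotency, 21 fell and Sox2 rose, with a median of -2.08, and 17 fell by at least 1. The summed level of the 22 genes was 2919 and 2874 FPKM at day 2 and 549 and 552 FPKM at day 4. In bulk RNA, fewer cells of a type and less RNA per cell cannot be told apart. Pou5f1 (ENSMUSG00000024406, GRCm38 chromosome 17, 35506018 to 35510772, plus strand), the octamer factor that maintains pluripotency, read 813 and 787 FPKM at day 2 and 84.1 and 86.0 FPKM at day 4, which is 9.41-fold lower (-3.22 ± 0.05, adjusted p = 4.06e-20). Utf1, a chromatin factor of stem cells, moved from 882 and 866 to 89.5 and 91.7 FPKM. Dppa2 and Dppa4, partner proteins of early embryonic chromatin, moved from 28.9 and 28.4 to 0.86 and 0.95 FPKM and from 142 and 144 to 12.0 and 9.46 FPKM, with changes of -3.96 and -3.62.

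The naive genes that were already low at day 2 changed least on the log2(FPKM + 1) scale, which makes changes between low values look small. Klf4 moved from 2.21 and 1.75 to 1.55 and 1.71 FPKM and its call rested on single libraries (change -0.18, and -0.07 with adjusted p = 0.515 without day 2 replicate 1). Prdm14 and Tfcp2l1 were under 1 FPKM in all 4 libraries and lost their calls when day 2 replicate 2 was left out (-0.19, adjusted p = 0.109, and -0.25, adjusted p = 0.0709), Prdm14 also without day 4 replicate 1 (-0.21, adjusted p = 0.0851). Nanog, a core factor, moved from 16.7 and 16.9 to 7.79 and 8.02 FPKM and fell by 1.00 ± 0.04 on the log2 scale, less than Pou5f1. Sox2, a pluripotency factor that is also required in neural progenitors, rose from 128 and 126 to 211 and 216 FPKM (0.75 ± 0.04, adjusted p = 5.37e-12). Days did not overlap for Nanog and Sox2.

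Genes of formative pluripotency, the state between naive cells and lineage choice, divided into 10 that fell and 6 that rose. Foxd3, Etv5 and Etv4 fell most. Etv5 moved from 70.6 and 70.7 to 8.16 and 8.01 FPKM (-2.98 ± 0.02, adjusted p = 2.47e-24). Fgf5, the marker of the epiblast, moved from 35.7 and 37.4 to 18.4 and 18.7 FPKM and Pou3f1, which also serves early neural fate, moved from 95.1 and 94.3 to 48.9 and 49.7 FPKM. Sox3, Lin28b, Sall2, Zic2, Otx2 and Lin28a rose, by 1.07, 0.92, 0.85, 0.78, 0.72 and 0.62. Other large falls under the naming rule were Tdh, the threonine dehydrogenase of mouse stem cells (from 113 and 113 to 5.60 and 5.92 FPKM), Calml4 (from 36.9 and 36.7 to 1.07 and 1.72 FPKM), Gdf3, Fkbp6, Tmem54, Apela, Sgk1, Rhox5, L1td1 and Tuba3a, whose reads can be shared with a near-identical tubulin gene.

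Neural progenitor genes rose in 13 of 18 cases, fell in 3 and were not called in 2, with a median of 0.70. Sox1, the earliest marker of neural plate, moved from 1.33 and 1.25 to 24.0 and 24.1 FPKM (3.45 ± 0.06, adjusted p = 8.33e-20). Hes5, a Notch effector of progenitors, read 1.45 and 0.44 FPKM at day 2 and 25.0 and 26.2 FPKM at day 4. Its day 2 libraries differed from each other and lay far below day 4. Msi1, an RNA-binding protein, moved from 16 and 16.2 to 78.2 and 77.6 FPKM. Nes and Vim, intermediate filaments of progenitors, and Fabp7, the radial glia fatty acid binder, fell, with changes of -0.41, -0.85 and -0.36. The call of Fabp7 was lost without day 2 replicate 2 (-0.21, adjusted p = 0.159).

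Genes of differentiating neurons were mostly near 0. Of 16, 7 rose, Ina fell and 8 were not called (5 and 1 after rescaling). The call of Ina, a neurofilament-type protein at a change of -0.17, was lost without day 4 replicate 1 (-0.1, adjusted p = 0.0577). Neurog2, a proneural factor, moved from 0.09 and 0.06 to 7.70 and 7.55 FPKM (3.0 ± 0.06, adjusted p = 1.92e-18). Tubb3 and Stmn3, microtubule proteins of neurons, rose, Tubb3 from 76.3 and 77.8 to 190.3 and 193 FPKM. Dcx, Neurod4, Nhlh2 and Neurog1 were at most 0.08 FPKM in each library and none was called.

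Markers of other cell types that such cultures could hold were examined in the same way. Of 5 tested mesendoderm genes 2 rose, Eomes fell and 2 were not called. T, Mixl1, Mesp1, Lhx1, Cer1 and Evx1 did not pass the filter and read at most 0.5 FPKM in the 4 libraries. The summed level of the 5 tested genes was 13.1 and 12.6 FPKM at day 2 and 9.90 and 10.2 FPKM at day 4. Of 17 extraembryonic endoderm genes 4 rose and 4 fell (4 and 6 after rescaling). The 4 that rose, Col4a1, Col4a2, Sparc and Lamb1, encode basement membrane proteins that many epithelia make, while Gata6, Sox7, Afp and Ttr were at most 0.93 FPKM. All 5 tested trophoblast genes fell, from a summed 17.1 and 17.9 to 9.18 and 9.33 FPKM, and Cdx2 and Elf5 were at most 0.08 FPKM. Of 15 neural crest and border genes 11 rose, led by Sox9, Zeb2 (from 0.88 and 0.64 to 11.5 and 11.2 FPKM) and Msx2 (from 0.28 and 0.17 to 4.48 and 4.74 FPKM), while the crest marker Sox10 stood at 0.81 and 0.61 FPKM at day 4. Of 12 lens and surface ectoderm genes 7 rose, Maf most (1.92), and Cryaa, Krt5 and Krt14 were at most 0.04 FPKM. The part of these cell types in the other changes was not tested.

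**Figure D2:**
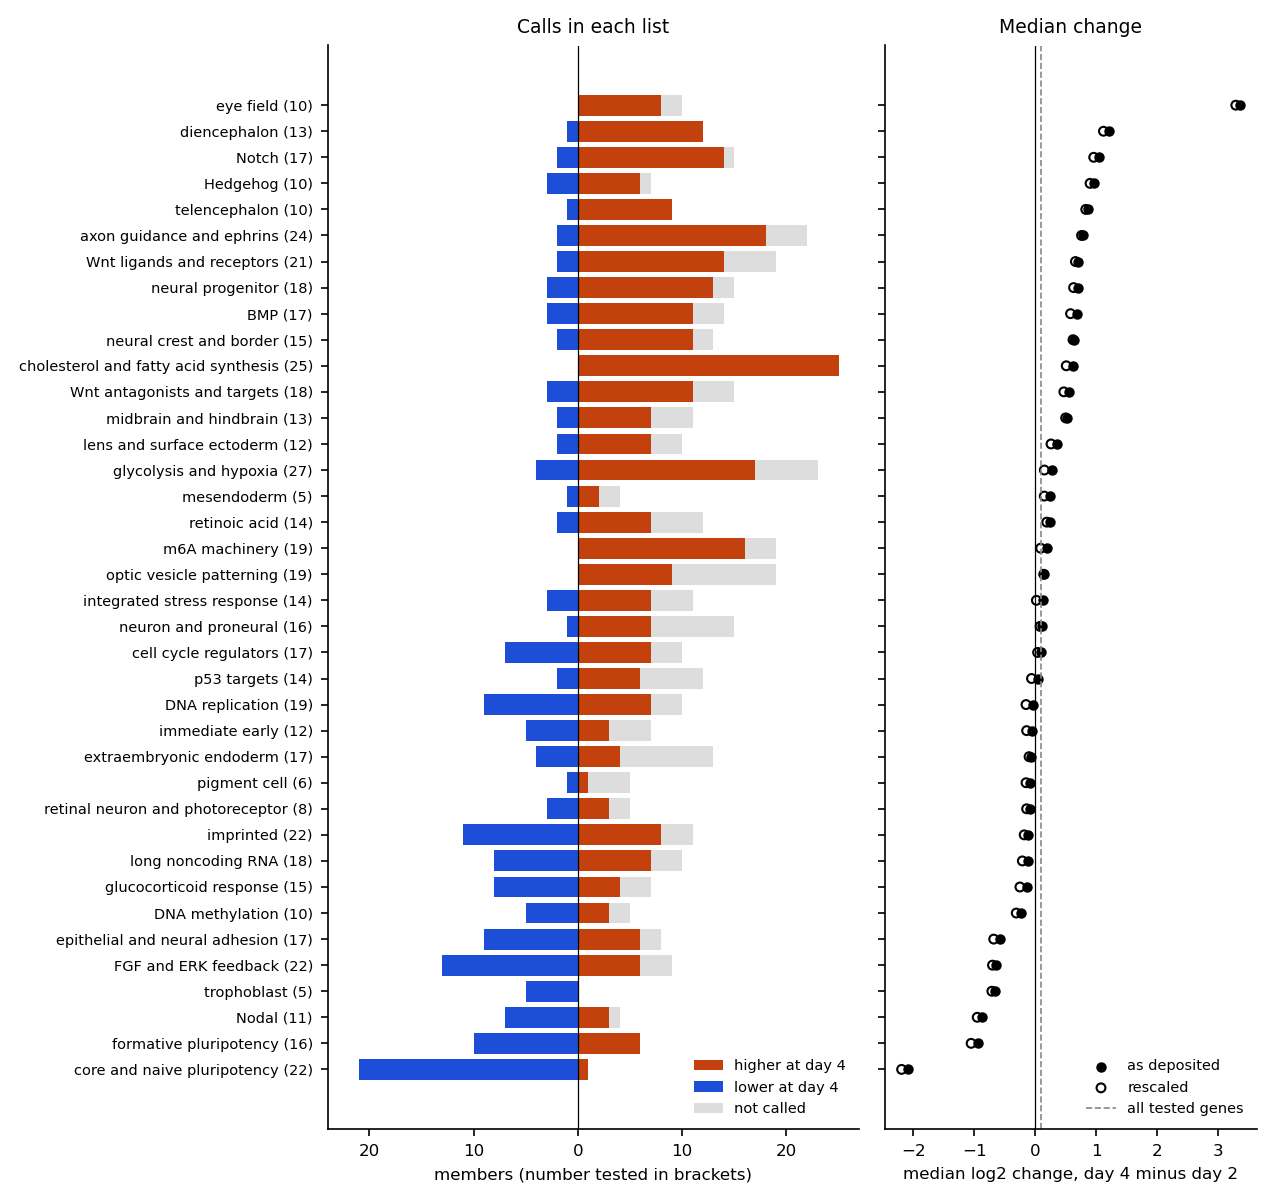
For each of 38 gene lists, the number of tested members called higher, called lower and not called at day 4 against day 2 in the fusion line with Dex (left), and the median log2 change of the members as deposited and after rescaling (right, dashed line at 0.09, the median of all tested genes). Eye field (3.36) and pluripotency (-2.08) stand at the ends of the range of medians, and the 25 cholesterol and fatty acid genes are all called higher (24 after rescaling).

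Genes of FGF signalling moved both ways, with receptors higher and most called feedback genes lower. FGF acts through receptor tyrosine kinases and ERK, which switches on its own inhibitors of the Sprouty and Dusp families and the Etv factors. Of 22 genes in the list 13 fell, 6 rose and 3 were not called (15 lower and 6 higher after rescaling), with a median of -0.65. The ligand Fgf4 moved from 27.2 and 27.1 to 2.42 and 2.62 FPKM and Fgf8 moved the other way, from 0.88 and 0.56 to 3.32 and 4.34 FPKM. Receptors Fgfr1, Fgfr2 and Fgfr3 rose, Fgfr2 from 7.59 and 7.47 to 54.8 and 56.2 FPKM (2.73 ± 0.06, adjusted p = 4.05e-18) and Fgfr1 from 42.8 and 42.4 to 122 and 121 FPKM. Of the feedback genes Spry4, Dusp6 and Spry2 fell, Spry4 from 9.78 and 10.4 to 0.87 and 0.93 FPKM (-2.54 ± 0.04, adjusted p = 4.14e-20), Dusp6 from 37.9 and 36.2 to 7.85 and 8.82 FPKM and Spry2 from 24.8 and 23.4 to 8.91 and 8.56 FPKM. Spry1 went against them and rose (0.53), and all of these genes had days that did not overlap, as did nearly all called genes. The related inhibitors Spred1 and Spred2 were not called (-0.08, adjusted p = 0.14, and -0.07, adjusted p = 0.21).

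Most ligands and cofactors of Nodal, a TGF-beta signal that holds the epiblast and directs mesendoderm, fell. Of 11 genes 7 fell and 3 rose, with a median of -0.87. The ligands Gdf3 and Nodal moved from 30.3 and 29.5 to 1.62 and 1.46 FPKM and from 3.75 and 3.96 to 1.03 and 0.87 FPKM. The co-receptor Tdgf1 moved from 76.3 and 77.7 to 17.6 and 17.5 FPKM (-2.07 ± 0.06, adjusted p = 1.89e-16). Lefty1 and Lefty2, feedback inhibitors, fell with changes of -0.87 and -1.87, and the signal's partner factor Foxh1 changed by -0.95. Smad3, a transducer of the signal, and the receptor Acvr2b rose, by 1.35 and 1.13.

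Notch genes moved the other way. Notch receptors are cut after binding ligands on neighbouring cells and switch on Hes and Hey repressors that hold progenitors back from differentiation. Of 17 genes 14 rose (13 after rescaling), 2 fell and 1 was not called, with a median of 1.05, and 10 rose by at least 1. Among ligands, Jag1 moved from 1.27 and 1.41 to 9.51 and 9.19 FPKM (2.15 ± 0.11, adjusted p = 1.81e-12) and Dll1 from 4.36 and 4.19 to 11.3 and 11.3 FPKM. Receptors Notch1, Notch2, Notch3 and Notch4 rose, Notch3 from 8.41 and 7.06 to 20.5 and 22.0 FPKM. Notch4 read 1.79 and 3.87 FPKM at day 2 and 5.96 and 7.32 FPKM at day 4, and its rise of 1.05 was 0.64 without day 2 replicate 1. The effectors Hes1 and Hes3 moved from 16.3 and 16.7 to 51.0 and 50.4 FPKM and from 0.34 and 0.32 to 6.02 and 5.48 FPKM. Hes6, which counters Hes1, fell from 86.7 and 87.5 to 33.2 and 30.4 FPKM (-1.43 ± 0.05, adjusted p = 1.11e-14).

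Genes on both sides of the Wnt pathway mostly rose. Wnt ligands bind Frizzled receptors and act through beta-catenin, and in the anterior neural plate the pathway is held down by secreted antagonists. Of 21 ligand and receptor genes 14 rose and 2 fell, and of 18 antagonists and targets 11 rose (10 after rescaling) and 3 fell. The receptor Fzd5, the Frizzled of the eye field, moved from 5.41 and 5.44 to 41.5 and 41.6 FPKM (2.73 ± 0.04, adjusted p = 2.88e-20). Ligands Wnt5b and Wnt7b moved from 1.28 and 1.22 to 9.69 and 9.99 FPKM and from 0.13 and 0.10 to 2.72 and 2.81 FPKM. Antagonists Sfrp1 and Dkk1 moved from 6.57 and 6.64 to 53.5 and 53.8 FPKM and from 0.28 and 0.29 to 8.15 and 7.84 FPKM, beside Frzb above. The feedback targets Axin2 and Nkd1 rose by 1.57 and 1.90, while Lef1, Tcf7 and Notum fell, with changes of -1.03, -0.48 and -2.96.

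Of 17 BMP genes 11 rose and 3 fell (4 after rescaling). Bmp7, a ligand needed for eye growth, moved from 1.35 and 1.4 to 7.41 and 8.03 FPKM. Targets Id1, Id2 and Id3, inhibitors of basic helix-loop-helix factors, rose, Id3 from 53.5 and 50.5 to 157 and 152 FPKM (1.55 ± 0.04, adjusted p = 5.75e-17). Grem1 and Nog, extracellular antagonists, rose by 1.96 and 1.09, and Chrd, also an antagonist, fell by 0.59 ± 0.10 on the log2 scale. Bmp4 read 19.9 and 23.2 FPKM at day 2 and 12.2 and 4.69 FPKM at day 4, so its day 4 libraries differed widely. Its change of -1.37 ± 0.33 (adjusted p = 0.00104) became -0.77 (adjusted p = 0.0489) without day 4 replicate 2.

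Hedgehog co-receptors and transducers rose while the tested target genes of the pathway fell. Gas1, Cdon and Boc, co-receptors, rose by 2.40, 1.30 and 0.84, Smo rose by 1.1, and Gli2 and Gli3 rose by 1.08 and 1.89. The target genes Gli1 and Ptch1 fell with changes of -0.67 and -0.64, with Ptch1 moving from 5.67 and 5.56 to 3.20 and 3.27 FPKM. The ligand Shh did not pass the filter and read at most 0.01 FPKM in these 4 libraries. Hhip, also in the list, did not pass it either and moved from 0 and 0.03 to 0.31 and 0.41 FPKM.

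Of 14 retinoic acid genes 7 rose and 2 fell (3 after rescaling). Retinoic acid is made from retinol by Rdh10 and the Aldh1a enzymes and cleared by Cyp26 enzymes. Crabp2, a carrier that hands it to the nucleus, moved from 106 and 104 to 389.8 and 372 FPKM (1.85 ± 0.04, adjusted p = 5.5e-18). Aldh1a2 moved from 0.20 and 0.16 to 1.03 and 0.92 FPKM and Cyp26a1 from 0.95 and 0.73 to 4.70 and 4.59 FPKM. The receptors Rara and Rarg fell with changes of -0.63 and -0.95.

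The cadherin of epithelia fell and that of the neural plate rose. Cdh1, the E-cadherin of epithelia and stem cells, read 152 and 147 FPKM at day 2 and 47.7 and 47.8 FPKM at day 4, 3.14-fold lower (-1.63 ± 0.04, adjusted p = 4.05e-17). Cdh2, the N-cadherin of neural plate, read 7.28 and 7.03 FPKM at day 2 and 61.3 and 61.5 FPKM at day 4 and rose by 2.94 ± 0.04 (adjusted p = 2.66e-21). At day 2 Cdh1 exceeded Cdh2 in both libraries and at day 4 Cdh2 exceeded Cdh1, both in FPKM, a level per length. Epcam, an epithelial adhesion molecule, moved from 298 and 292 to 58.1 and 60.7 FPKM and Cdh11, a mesenchymal and neural cadherin, moved from 0.12 and 0.11 to 7.80 and 7.68 FPKM. Among claudins, tight junction proteins, Cldn6, Cldn4 and Cldn7 fell, Cldn6 from 145 and 145 to 43.2 and 45.1 FPKM (-1.69 ± 0.10, adjusted p = 9e-12), and Cldn3 rose from 11 and 11 to 24.4 and 24.1 FPKM. Over the list of 17, 9 fell and 6 rose (11 and 6 after rescaling).

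Guidance molecules rose in 18 of 24 cases and fell in 2, with a median of 0.79. Ntn1, a secreted guidance cue that also lines the optic fissure, moved from 0.70 and 0.68 to 27.1 and 27.1 FPKM (4.05 ± 0.09, adjusted p = 2.97e-18). Epha7 and Ephb1, ephrin receptors, moved from 0.77 and 0.83 to 18.7 and 21.0 FPKM and from 1.64 and 1.60 to 19.5 and 18 FPKM. The ephrin Efnb2, which marks dorsal retina, moved from 5.70 and 5.49 to 33.5 and 33.6 FPKM (2.39 ± 0.03, adjusted p = 5.36e-21). Epha2, an ephrin receptor of epithelia and stem cells, moved the other way, from 11.4 and 11.6 to 1.73 and 1.61 FPKM. Days did not overlap for these genes, as for 10839 of all 10860 called genes.

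**Figure D3:**
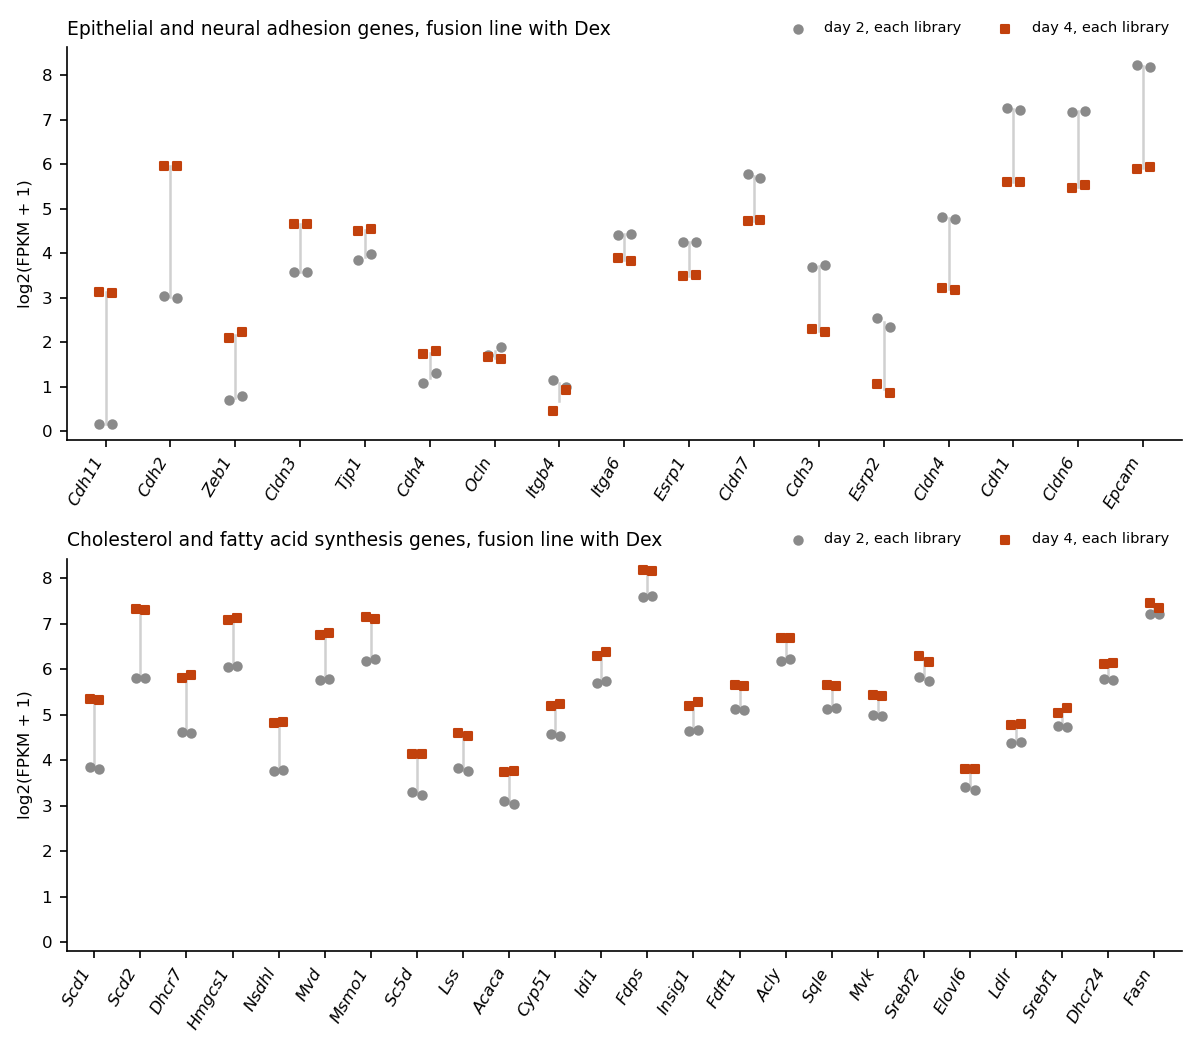
Level of 17 adhesion genes (top) and 24 of the 25 cholesterol and fatty acid synthesis genes (bottom) in each of the 4 libraries of the fusion line with Dex, on a log2(FPKM + 1) axis with 1 point per library and day 2 and day 4 in different colours. Cdh1 and Epcam fall and Cdh2 and Cdh11 rise, while all cholesterol genes shown are called higher, with changes from 0.20 for Fasn to 1.51 for Scd1 and Scd2 (24 of 25 called after rescaling).

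All 25 genes of cholesterol and fatty acid synthesis rose (24 after rescaling), with a median of 0.62 as deposited and 0.51 rescaled, against 0.09 and 0.00 over all genes. The summed level of the list was 1118 and 1119 FPKM at day 2 and 1827 and 1820 FPKM at day 4. In this pathway acetyl-CoA is built into mevalonate, with Hmgcs1 at an early step, then into squalene and sterols, under the SREBP factors. Hmgcs1 moved from 64.6 and 66.1 to 135 and 139 FPKM (1.05 ± 0.02, adjusted p = 4.44e-18). Of the sterol branch, Dhcr7 and Nsdhl rose by 1.22 and 1.05. Scd2, a fatty acid desaturase, moved from 54.7 and 55.0 to 158 and 158 FPKM, and the regulators Srebf2, Srebf1 and Insig1 rose by 0.43, 0.37 and 0.58. Days did not overlap for any gene named here, as for 10839 of all 10860 called genes. The sterol regulatory element TCACNCCAC was found in the promoter window of 1 of 17 genes of the list with an entry (5.88%), Hmgcs1, and in 1.22% of all genes. It was no more frequent here than in other lists, with 2 of 15 genes of core and naive pluripotency (13.3%) and 2 of 25 of glycolysis and hypoxia (8.0%). The Hmgcs1 window (chr13:119690101-119690350, plus strand) is shown as the entry gene of the pathway, with the match in capitals at 137 to 129 bases before the start:
Hmgcs1: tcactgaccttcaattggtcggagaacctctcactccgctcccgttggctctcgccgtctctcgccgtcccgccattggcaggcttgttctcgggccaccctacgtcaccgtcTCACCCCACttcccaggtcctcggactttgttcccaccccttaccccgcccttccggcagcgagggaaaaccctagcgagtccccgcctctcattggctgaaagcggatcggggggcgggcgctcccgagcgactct

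Of 27 genes of glycolysis and the response to low oxygen, 17 rose, 4 fell and 6 were not called (16 higher and 8 lower after rescaling). Slc2a3, Eno2 and Vegfa rose most. Slc2a3, a glucose transporter of neural cells, moved from 78.2 and 77.1 to 351 and 351 FPKM (2.16 ± 0.02, adjusted p = 9.51e-24), and Slc2a1, the general transporter, from 404 and 405 to 587 and 591 FPKM. Vegfa, the vascular growth factor induced by low oxygen, moved from 10.6 and 10.1 to 34.6 and 36.1 FPKM. Pkm and Ldha, abundant enzymes, changed by 0.16 and 0.05, and Gapdh was not called at 7565 and 7659 FPKM at day 2 and 7872 and 7804 FPKM at day 4. After rescaling Ldha and Gapdh had the other sign (-0.06 and -0.07). Pdk1, a kinase that inhibits pyruvate dehydrogenase, and Ldhb fell, with changes of -1.50 and -1.06. The hypoxia response element GGACGTG occurred in the promoter window of 7 of the 25 genes with an entry (28.0%), Aldoa, Hk2, Ldha, Pgk1, Pkm, Slc16a3 and Slc2a1, and in 1.96% of all genes. Slc2a1 had the largest change of the 7, 0.54. Among other lists the element occurred in 1 of 8 eye field genes (12.5%) and 1 of 17 cholesterol genes (5.88%). It was found in 0 of 15 pluripotency genes and 0 of 13 glucocorticoid genes. The list was written from known genes of glycolysis and this response, so its share is no independent result. The Pgk1 window (chrX:106186850-106187099, plus strand) is printed as an example of a gene that rose, from 713 and 719 to 971 and 987 FPKM, with the match in capitals at 152 to 146 bases before the start:
Pgk1: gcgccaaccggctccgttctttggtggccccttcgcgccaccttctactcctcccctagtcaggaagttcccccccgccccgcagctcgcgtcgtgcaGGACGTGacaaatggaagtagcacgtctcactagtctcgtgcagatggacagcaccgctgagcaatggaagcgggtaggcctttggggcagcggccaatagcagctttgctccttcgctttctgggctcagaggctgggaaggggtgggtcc

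Dex was present at both days, so genes known to respond to glucocorticoids were followed across the interval. Of 15 tested, 4 rose, 8 fell and 3 were not called (3 and 10 after rescaling). The median was -0.14, beside -0.28 in no Dex, -0.29 in WT and -0.34 in KO, which did not receive Dex. Compared with no Dex, the change was more positive for 6 genes and more negative for 2 (4 and 2 after rescaling). Over all tested genes these shares were 20.7% and 10.5%. Against WT the counts were 3 and 5, and against KO 8 and 2 (3 and 5, and 6 and 2, after rescaling). Tsc22d3 and Zbtb16, standard targets of the hormone, rose, Tsc22d3 from 5.93 and 5.60 to 15.3 and 16 FPKM and Zbtb16 from 0.32 and 0.17 to 6.95 and 6.66 FPKM. Their changes in the cultures without Dex are not reported here. Fkbp5, another standard target, moved from 23.9 and 23.5 to 21.3 and 21.5 FPKM (-0.14 ± 0.03, adjusted p = 0.00134). Klf9 and Dusp1 fell, with changes of -1.26 and -0.22, and the call of Dusp1 was lost without day 4 replicate 2 (-0.16, adjusted p = 0.0566). Nr3c1, the receptor itself, moved from 1.48 and 1.72 to 0.64 and 0.53 FPKM (-0.71 ± 0.09, adjusted p = 1.82e-06).

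Sgk1 (ENSMUSG00000019970, GRCm38 chromosome 10, 21882184 to 21999903, plus strand), a kinase gene that is a classical target of the receptor, read 34.4 and 32.6 FPKM at day 2 and 2.70 and 2.68 FPKM at day 4, 12.5-fold lower (-3.22 ± 0.11, adjusted p = 4.79e-15). It also fell in the cultures that received no Dex, with changes of -3.41 in no Dex, -3.18 in WT and -2.15 in KO. The difference from no Dex was not called (0.19 ± 0.16, adjusted p = 0.405), nor was that from WT (-0.05 ± 0.16, adjusted p = 0.844), while the fall was larger than in KO (-1.07 ± 0.16, adjusted p = 3.41e-05). The full palindromic glucocorticoid response element occurred in 3 of 32851 promoter windows (0.00913%), and 1 of them belongs to Sgk1, which has 6 annotated windows. It is printed because the gene is both a listed target and among the largest falls (chr10:21993640-21993889, plus strand), with the element in capitals at 189 to 175 bases before that start:
Sgk1: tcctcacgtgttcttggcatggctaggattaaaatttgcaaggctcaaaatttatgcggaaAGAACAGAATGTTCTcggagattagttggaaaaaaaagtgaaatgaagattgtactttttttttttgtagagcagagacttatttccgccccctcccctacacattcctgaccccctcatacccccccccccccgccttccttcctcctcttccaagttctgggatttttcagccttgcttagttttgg

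Transcripts of the m6A machinery rose slightly. Of 19, 16 rose, none fell and 3 were not called, against 11 higher and 2 lower after rescaling. Igf2bp2, an m6A reader, had the largest change, from 28.3 and 27.5 to 87.5 and 87.7 FPKM (1.62 ± 0.04, adjusted p = 1.02e-16). The eraser Fto rose from 19.0 and 19.6 to 30.6 and 29.3 FPKM, and the reader Ythdf2 from 20.3 and 18.8 to 26.1 and 26.3 FPKM. Writer subunits Mettl14 and Wtap rose by 0.24 and 0.27, and Ythdc1, the nuclear reader, by 0.09, a change that had the other sign after rescaling (-0.02) and was not called when any 1 of the 4 libraries was left out (adjusted p = 0.0605 to 0.168).

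De novo DNA methylation enzymes fell. Dnmt3l, the cofactor, moved from 126 and 125 to 15.4 and 13.8 FPKM (-3.03 ± 0.06, adjusted p = 1.05e-18), Dnmt3b from 389 and 386 to 124 and 125 FPKM and Dnmt3a from 80.6 and 76.8 to 24.9 and 23.2 FPKM. The maintenance enzyme Dnmt1 changed by 0.10 and, rescaled, by -0.01. Among the oxidizing enzymes Tet1 fell (-0.81) and Tet3 rose (1.00).

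Imprinted genes, expressed from 1 parental allele, divided into 8 that rose and 11 that fell of 22. Mest (ENSMUSG00000051855, GRCm38 chromosome 6, 30723547 to 30748465, plus strand) read 127 and 137 FPKM at day 2 and 1589.6 and 1582 FPKM at day 4, 12.0-fold higher (3.58 ± 0.06, adjusted p = 8.1e-20), and reached the highest day 4 level of the list. Igf2 moved from 0.82 and 1.12 to 13.8 and 13.5 FPKM and Sgce from 6.75 and 5.78 to 24.7 and 26.8 FPKM. The noncoding transcripts Meg3, Rian and Mirg of 1 locus fell together, with changes of -0.43, -0.23 and -0.73, Meg3 from 1688 and 1701 to 1264 and 1249.6 FPKM.

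Replication genes changed little. Of 19 replication genes 7 rose and 9 fell (3 and 11 after rescaling), with changes between -0.35 and 0.22. Cyclin D2, Ccnd2, moved from 0.85 and 1.02 to 8.49 and 7.96 FPKM (2.25 ± 0.08, adjusted p = 6.24e-15) while Ccnd1 moved from 35.7 and 34.6 to 22.4 and 22.5 FPKM. Mycn fell from 90.7 and 92.6 to 34.0 and 33.6 FPKM and the inhibitor Cdkn2a from 19.9 and 17.7 to 4.95 and 4.05 FPKM.

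**Figure D4:**
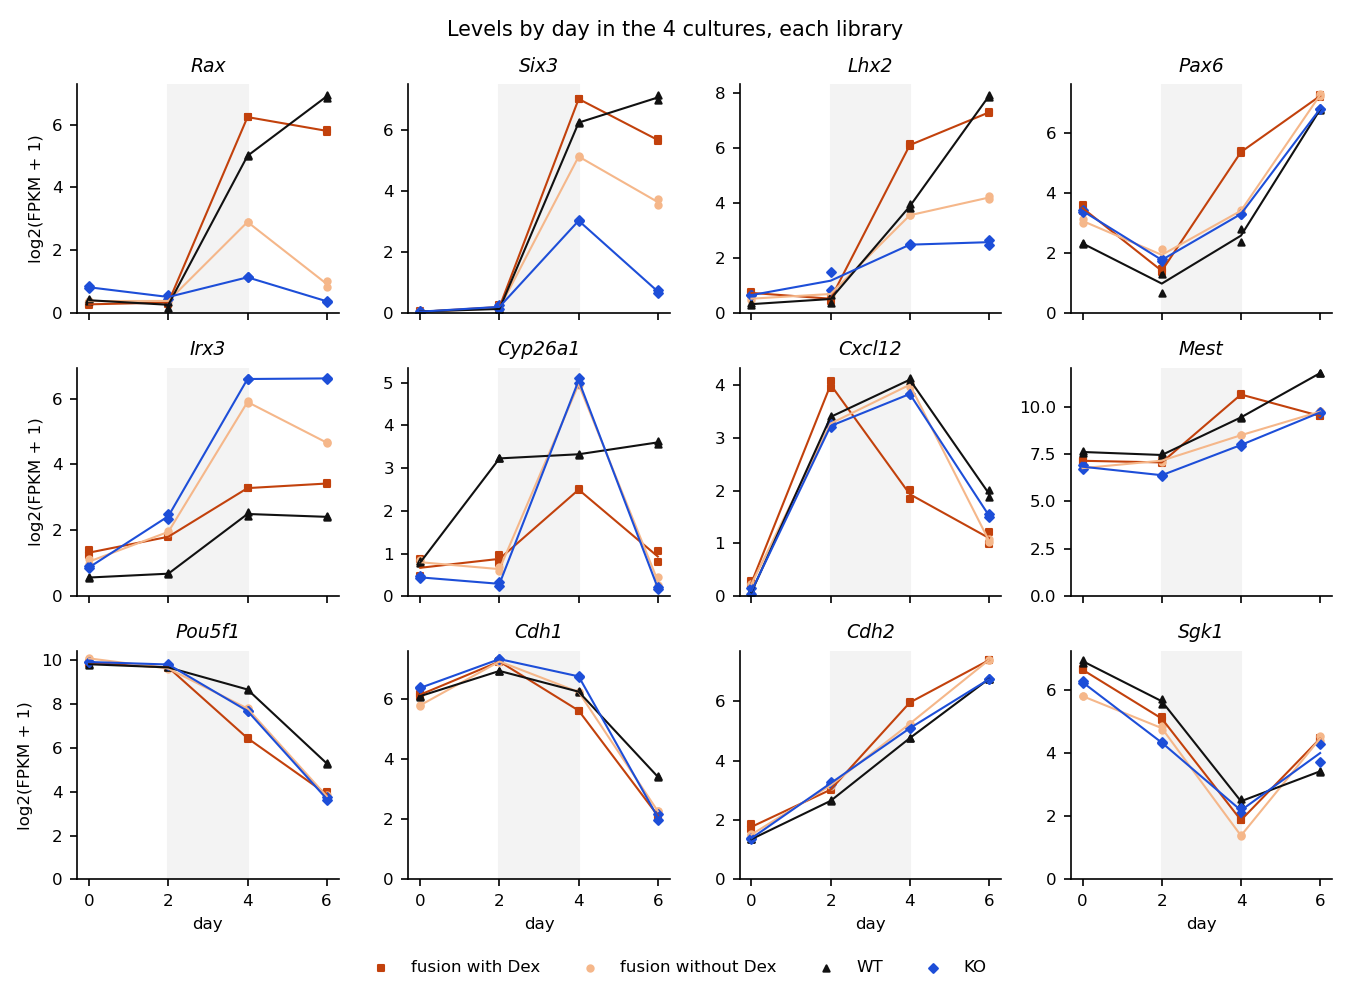
Level of 12 genes at days 0, 2, 4 and 6 in the fusion line with Dex, the fusion line without Dex, WT and KO, on a log2(FPKM + 1) axis, with 1 point per library, lines through the mean of the log2 values and the interval from day 2 to day 4 shaded. Within the shaded interval Rax, Six3, Lhx2, Pax6 and Mest rise most with Dex, Cxcl12 falls with Dex and rises in the other cultures, and Irx3 and Cyp26a1 rise most in no Dex and KO.

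The interval lies within a longer course, for which the libraries of the neighbouring days are given side by side. In the libraries labelled with Dex, Rax was at 0.23 and 0.20 FPKM at day 0 and 53.9 and 55.5 FPKM at day 6, and Six3 at 0.01 and 0.05 FPKM and 48.4 and 50.9 FPKM. Both had their highest level of the 4 days at day 4. Lhx2 and Pax6 were higher still at day 6, at 154 and 155 FPKM and 154 and 149 FPKM. Hesx1 was at 0.47 and 0.26 FPKM at day 6, far under its day 4 level. Cdh1 stood at 67.9 and 70.9 FPKM at day 0 and 3.44 and 3.26 FPKM at day 6, and Pou5f1 at 913 and 928 FPKM and 14.8 and 12.8 FPKM.

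The change from day 2 to day 4 was then set against the same change in each other culture, tested as the difference of the 2 changes. Across genes the changes ran alongside those of the other cultures, with Pearson r and Spearman rho of 0.84 and 0.79 for no Dex, 0.80 and 0.75 for WT and 0.80 and 0.78 for KO. These are descriptions across 16276 genes, which are not independent replicates. Within each comparison the 2 changes share no libraries, but the same 4 libraries with Dex enter every comparison. The difference from no Dex was called for 5087 genes (31.3%), that from WT for 5689 (35.0%) and that from KO for 5356 (32.9%). By at least 1 on the log2 scale these were 184 (1.13%), 320 (1.97%) and 332 (2.04%). More positive changes with Dex were 66.3%, 61.9% and 64.8% of these calls as deposited, and 51.8%, 50.0% and 53.3% after rescaling.

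**Figure D5:**
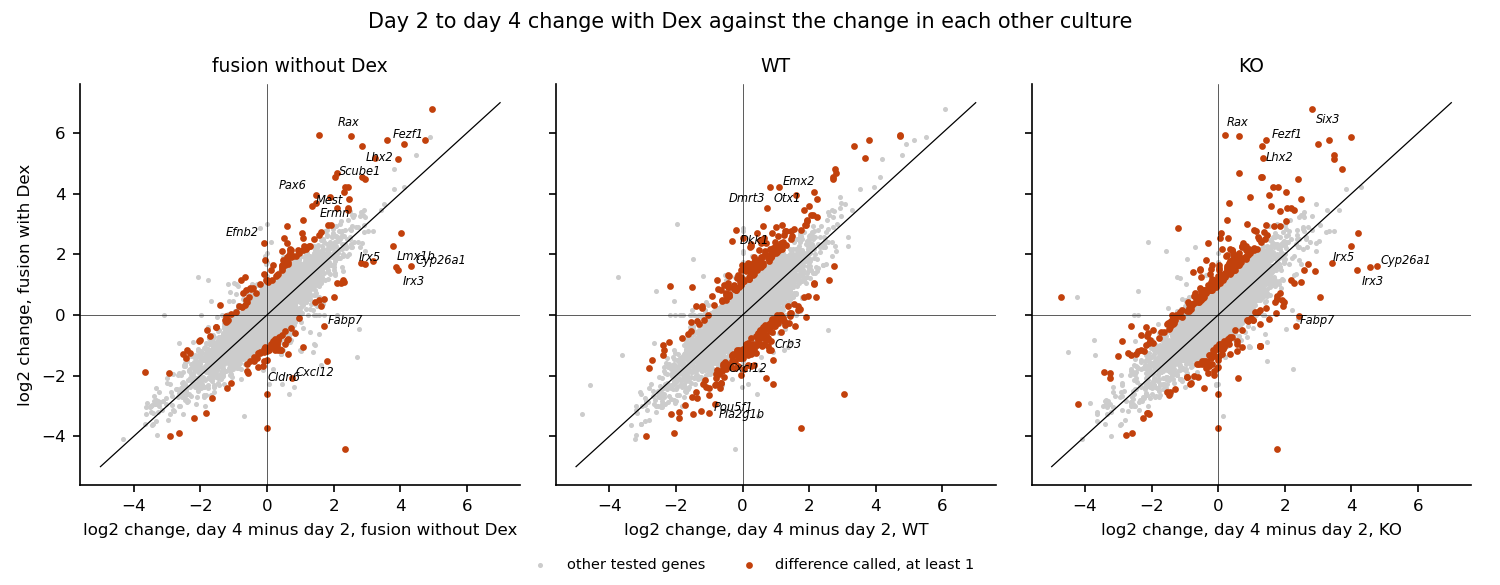
Log2 change from day 2 to day 4 of each tested gene in the fusion line with Dex (vertical) against its change in no Dex, WT and KO (horizontal, 1 panel each), with orange points for genes whose difference was called and at least 1 and labels for genes of the naming rule (Gm10337 is not labelled). Rax, Lhx2 and Fezf1 lie above the diagonal in the panels for no Dex and KO, Irx3, Irx5 and Cyp26a1 below it there, and Cxcl12 lies below it in all 3.

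Against no Dex, the same line without the hormone, the difference was more positive with Dex for 20.7% of all tested genes and more negative for 10.5%. Eye field genes were more positive in 8 of 10 cases and more negative in 1 (8 and 1 after rescaling), with a median difference of 0.78. Rax moved from 0.32 and 0.30 to 6.51 and 6.43 FPKM in no Dex, and the difference of the changes was 3.39 ± 0.09 (adjusted p = 6.15e-15). For Six3, which moved from 0.19 and 0.06 to 34.5 and 33.1 FPKM without Dex, it was 1.85 ± 0.10 (adjusted p = 1.23e-10). For Lhx2 (from 0.56 and 0.68 to 10.7 and 10.8 FPKM) it was 2.72 ± 0.19 (adjusted p = 6.59e-09), and for Pax6 (from 2.38 and 3.38 to 9.42 and 9.96 FPKM) 2.49 ± 0.21 (adjusted p = 6.57e-08). Each of these genes rose in both cultures, with all day 4 libraries higher with Dex than without. The reporter row moved from 0.12 and 0.32 to 2.77 and 2.38 FPKM without Dex (4.4 ± 0.28, adjusted p = 1.07e-09). Mab21l2 went against the list (-0.41).

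The 8 most positive differences from no Dex under the naming rule were those of Rax, Lhx2, Scube1, Efnb2, Pax6, Mest, Ermn and Fezf1. Efnb2 moved from 9.29 and 9.28 to 8.75 and 8.38 FPKM in no Dex and so rose in the Dex cultures alone of these 2 (2.49 ± 0.05, adjusted p = 2.73e-17). Mest moved from 149 and 133 to 359.7 and 357 FPKM without Dex, against a day 4 level of 1589.6 and 1582 FPKM with it (2.24 ± 0.09, adjusted p = 6.22e-13). Telencephalon genes were more positive with Dex in 7 of 10 cases and more negative in 1 (7 and 1 after rescaling), Wnt antagonists and targets in 8 and 2 of 18, Notch genes in 10 and 1 of 17 (8 and 2 after rescaling), and m6A machinery in 12 and 0 of 19 (10 and 0 after rescaling). Against KO the m6A list read otherwise, with 4 more positive and 3 more negative (1 and 7 after rescaling).

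The 8 most negative differences from no Dex were those of Gm10337, Cxcl12, Cyp26a1, Irx3, Irx5, Fabp7, Cldn6 and Lmx1b. Diencephalon genes divided, 6 more positive and 6 more negative, and the 4 listed Iroquois genes were all on the negative side. Irx3 (ENSMUSG00000031734, GRCm38 chromosome 8, 91798525 to 91802067, minus strand) moved from 2.78 and 2.98 to 59.5 and 57.5 FPKM in no Dex, against from 2.45 and 2.55 to 8.67 and 8.80 FPKM with Dex, a difference of -2.46 ± 0.08 (adjusted p = 7.36e-14). Irx5 moved from 0.81 and 0.81 to 26.4 and 25.1 FPKM (-2.29 ± 0.13, adjusted p = 2.45e-10) and Irx1 from 0.51 and 0.52 to 23.1 and 23.9 FPKM (-1.32 ± 0.16, adjusted p = 4.23e-06). Cyp26a1 (ENSMUSG00000024987, GRCm38 chromosome 19, 37697798 to 37701536, plus strand), which clears retinoic acid, moved from 0.51 and 0.60 to 30.0 and 30.5 FPKM without Dex (-2.71 ± 0.14, adjusted p = 1.21e-10). Lmx1b, a midbrain LIM factor, moved from 0.94 and 0.90 to 25.6 and 24.9 FPKM (-1.50 ± 0.11, adjusted p = 8.26e-09). All of these genes rose in both cultures and rose less with Dex. The value of Gm10337 rests on single libraries, 10.9 FPKM in 1 no Dex library at day 4 and 7.28 FPKM in 1 Dex library at day 2, with the others of these 8 at 0. Without that no Dex library the difference was -1.52 and not called (adjusted p = 0.194).

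Cxcl12 (ENSMUSG00000061353, GRCm38 chromosome 6, 117168535 to 117181367, plus strand), a chemokine that guides migrating cells, changed in opposite directions. With Dex it read 15.8 and 14.4 FPKM at day 2 and 3.05 and 2.60 FPKM at day 4 and changed by -2.07 ± 0.07 (adjusted p = 4.02e-15). It moved from 8.75 and 8.57 to 15.5 and 14.7 FPKM in no Dex, from 9.43 and 9.63 to 16.4 and 15.9 FPKM in WT and from 8.17 and 8.54 to 13.2 and 13.2 FPKM in KO. The day 4 libraries with Dex lay below all other libraries of these 2 days, and the day 2 libraries with Dex above all other day 2 libraries. The differences were -2.81 ± 0.10 (adjusted p = 2.43e-13) against no Dex, -2.78 ± 0.10 (adjusted p = 2.34e-13) against WT and -2.68 ± 0.10 (adjusted p = 3.55e-13) against KO. Called changes in opposite directions with a called difference were found for 2.46% of tested genes against no Dex, 3.13% against WT and 2.91% against KO. With each change at least 0.5 they were found for 8 genes against no Dex (0.0492%), 24 against WT (0.147%) and 18 against KO (0.111%). Palld, an actin-binding scaffold protein, was among the 8 and the 18 and is named here after its values were seen. With Dex it moved from 12.7 and 13.1 to 32.1 and 31.6 FPKM, rising by 1.24 ± 0.04 (adjusted p = 2.64e-15), while it changed by -0.67 in no Dex and by -0.51 in KO.

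Pluripotency genes differed from no Dex in both directions. Of 22, 14 had a more positive and 3 a more negative change with Dex (13 and 3 after rescaling). The 3 were Pou5f1, Dppa2 and Utf1. Pou5f1 moved from 779 and 765 to 216 and 219.9 FPKM without Dex, so that its fall was larger with Dex (-1.4 ± 0.07, adjusted p = 1.05e-10). Esrrb, a naive factor, was already lower at day 2 with Dex (13.3 and 13.1 FPKM) than without (25.9 and 25.4 FPKM) and fell less (1.24 ± 0.06, adjusted p = 4.48e-11). Of 11 Nodal genes 7 were more positive and 1 more negative. Lefty2 moved from 25.1 and 23.5 to 1.01 and 0.98 FPKM without Dex and from 5.5 and 6.13 to 0.91 and 0.82 FPKM with Dex, and Nodal from 8.95 and 9.38 to 1.19 and 1.38 FPKM without and from 3.75 and 3.96 to 1.03 and 0.87 FPKM with. For both, the day 2 levels were lower with Dex, and at day 4 no library of either culture exceeded 1.38 FPKM. Adhesion genes were more negative with Dex in 8 of 17 cases and more positive in 3 (8 and 2 after rescaling). Cldn6 moved from 93.4 and 94.3 to 85.8 and 87.0 FPKM without Dex (-1.58 ± 0.14, adjusted p = 9.05e-08) and Cdh1 from 151 and 149 to 73.1 and 74.4 FPKM (-0.61 ± 0.06, adjusted p = 2.93e-07). Vim was higher with Dex at day 2 and lower at day 4 than without (-1.04 ± 0.04, adjusted p = 1.12e-12).

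Against WT, in which METTL3 is not altered per the labels, the change with Dex was larger for most anterior genes and for the fall of most pluripotency genes. The background was 21.7% of tested genes more positive and 13.3% more negative. Eye field genes were more positive in 7 of 10 and more negative in none (5 and 0 after rescaling), with Rax moving from 0.13 and 0.28 to 30.7 and 31.5 FPKM in WT (1.16 ± 0.09, adjusted p = 1.12e-08) and Six3 from 0.11 and 0.09 to 73.8 and 74.3 FPKM (0.71 ± 0.10, adjusted p = 1.65e-05). The 4 most positive differences were Otx1 (from 0.21 and 0.21 to 1.1 and 1.17 FPKM in WT; 3.40 ± 0.06, adjusted p = 4.82e-18), Emx2 (3.12), Dkk1 (3.01) and Dmrt3 (2.80). Dkk1, the Wnt co-receptor antagonist, moved from 1.23 and 1.34 to 0.92 and 1.05 FPKM in WT. Diencephalon genes were more positive in 11 of 13 (10 after rescaling) and more negative in 1, neural crest genes in 10 and 2 of 15 (7 and 2 after rescaling). Midbrain and hindbrain genes were more positive in 8 of 13 and more negative in 1 (7 and 1 after rescaling). The larger change was thus not confined to anterior genes. Pluripotency genes were more negative in 12 of 22 and more positive in 3 (13 and 3 after rescaling), and Pou5f1 moved from 802 and 799 to 396 and 401 FPKM in WT (-2.22 ± 0.07, adjusted p = 6.49e-14). The 4 most negative were Cxcl12, Pou5f1, Pla2g1b (-2.09) and Crb3 (-2.01), an apical polarity gene that moved from 15.2 and 15.1 to 28.9 and 27 FPKM in WT and from 28.0 and 26.6 to 11.9 and 11.2 FPKM with Dex.

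Metabolic lists also differed from WT and KO. Glycolysis genes were more negative with Dex than in WT in 19 of 27 cases and more positive in 2 (19 and 2 after rescaling), and against KO more positive in 20 and more negative in 2 (19 and 4 after rescaling). Egln3, an oxygen sensor that is itself induced by low oxygen, moved from 4.66 and 4.74 to 20.6 and 21.2 FPKM in WT, from 18.7 and 18.4 to 28.9 and 29.5 FPKM with Dex and from 30.9 and 29.7 to 20.6 and 19.8 FPKM in KO. Its differences were -1.32 ± 0.10 (adjusted p = 4.44e-09) against WT and 1.19 ± 0.10 (adjusted p = 1.93e-08) against KO. The WT libraries at day 2 lay below those of all other cultures at that day. Cholesterol genes were more positive with Dex than in WT in 18 of 25 and more negative in none (14 and 1 after rescaling).

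Against KO the difference was more positive with Dex for 21.3% of all tested genes and more negative for 11.6%. Eye field genes were more positive in 7 of 10 and more negative in 1 (7 and 1 after rescaling), with a median difference of 1.32, beside 0.78 against no Dex and 0.60 against WT. Rax moved from 0.37 and 0.49 to 1.2 and 1.21 FPKM in KO, and the difference was 5.27 ± 0.09 (adjusted p = 1.31e-18). Six3 moved from 0.10 and 0.21 to 7.08 and 7.18 FPKM (3.99 ± 0.10, adjusted p = 5.16e-16), Lhx2 from 0.80 and 1.84 to 4.52 and 4.67 FPKM (4.26 ± 0.19, adjusted p = 5.07e-12) and Fezf1 from 0.12 and 0.08 to 1.92 and 2.00 FPKM (4.35 ± 0.07, adjusted p = 9.14e-19). These 4 were the most positive differences under the naming rule. The 4 most negative were Cyp26a1 (from 0.19 and 0.26 to 33.4 and 31.0 FPKM in KO; -3.14 ± 0.14, adjusted p = 6.25e-12), Irx5 (-2.97), Irx3 (from 4.67 and 4.13 to 95.1 and 96.0 FPKM in KO; -2.69 ± 0.08, adjusted p = 1.7e-14) and Fabp7 (from 8.86 and 10.0 to 53.6 and 48.8 FPKM in KO; -2.69 ± 0.16, adjusted p = 2.93e-10). For the eye field genes Rax and Six3 the order of the day 4 levels was the line with Dex, WT, no Dex and KO, and for Irx3 and Irx5 it was KO, no Dex, Dex and WT, with duplicates that did not overlap between neighbours in either order. These orders are a description. Adhesion genes were more negative with Dex than in KO in 10 of 17 and more positive in 2, Epcam moving from 210.5 and 213 to 115 and 116 FPKM in KO (-1.43 ± 0.09, adjusted p = 7.43e-10).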

How the data were processed

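RNA from organoids was sequenced after polyA selection, per the labels' protocols, and the authors deposited 1 table of FPKM values with a column per library. STAR, Cuffdiff and build mm10 are named in the submitters' processing notes, without versions, and the strand setting is not given in the sources used here. Columns were matched to samples by name. FPKM in the table is rounded to 2 decimals. Depth was estimated from the steps of low values, as the depth and fragment length that brought them closest to whole fragments. With these, 89.5% to 90.7% lay within 0.2 of a whole fragment in the 4 libraries (40.0% by chance without a fit). This share comes from the values that were fitted and is no independent check of the depth.

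Of the 55492 rows, 16276 with at least 1 FPKM in at least 2 of 32 libraries were tested with limma 3.58.1 in R 4.3.3 (trended empirical Bayes) on log2(FPKM + 1), with 1 mean for each of 16 groups of 2 libraries and 16 residual degrees of freedom. Tests are two-sided with Benjamini-Hochberg adjustment over all tested genes and a threshold of 0.05, and adjusted p in the text comes from this model. Differences of change between cultures are contrasts of the same fit. Python 3.11.15 was used for the rest. Tested on simulated data of the comparison, with 16276 genes and 10 simulations, the fit recovered on average 88.6 of 100 genes changed by 0.5 and 97.3 of 100 changed by 1, and 6.1% of its calls were false. The changed genes all had a mean of at least 5 FPKM, every other gene was left unchanged and the noise was normal and independent. In the data most genes were called and many lay lower, so these rates do not carry over to the calls reported here. Of the table's rows 99.5% matched the GENCODE annotation (GRCm38) used for names and coordinates.

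Named genes were the members of 38 lists, Mettl3 and the reporter, the 15 largest rises and falls among called protein-coding genes with days that did not overlap and a mean of at least 5 FPKM at the higher day, and the most positive and negative called differences (8 each against no Dex, 4 each against WT and KO). The comparison, the lists and the rule were chosen with earlier results of these data known. Values of a gene in several lists count in each. Some named genes count in their lists and are not reported here by name. Duplicates with the same number did not deviate together, so no pairing was used. Alternatives were another pseudocount, other filters, median-of-ratios rescaling, a fit of the compared groups alone, a replicate block and leaving out each library.

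Promoters are the 250 bases before each RefSeq start (GRCm38.p6, 32851 windows of 27025 genes). After expression values were seen, 18 motifs were searched on both strands: TAATTA for homeodomain factors and GGATTA for the bicoid type, ATTTGCAT and ATTAGCAT for octamer factors, TCACNCCAC and its short form TCACCCCA for sterol regulation, TGACGTGG for unfolded proteins, GGACGTG for hypoxia and ACGTG as its core, the E-box CACGTG with its longer form CCACGTG, then TTCNNGAA for signal transducers (STAT), and CATTGTT for SOX, GGGTGTGG for KLF, TTCCCGCC for E2F and GCTTTGA for TCF factors, and the composite SOX and octamer element and the glucocorticoid response element. Several overlap, since the hypoxia core is contained in the full hypoxia, unfolded protein and E-box motifs. Matches to 4 of them are described. No test was made.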

Additional observations from a re-analysis of the deposited data

Results flagged for a closer look

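The results here were noted because the change from day 2 to day 4 with Dex differed from the same change in another culture by a test of the difference itself, made across all 16276 genes with limma. The number of genes was 5087 against no Dex, 5689 against WT and 5356 against KO. All values are differences of 2 log2 changes, and those named are the extremes under the naming rule, so their size is in part a matter of selection.

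Against no Dex the most positive were Rax (3.39), Lhx2 (2.72), Scube1 (2.51), Efnb2 (2.49), Pax6 (2.49), Mest (2.24), Ermn (2.24) and Fezf1 (2.18). Scube1, which codes for a secreted protein, moved from 0.39 and 0.54 to 33.2 and 33.1 FPKM with Dex and from 0.57 and 0.63 to 5.36 and 5.76 FPKM without. Ermn, a cytoskeletal gene of myelinating cells, moved from 0.01 and 0.01 to 11.8 and 12.5 FPKM with Dex and from 0 and 0 to 1.68 and 1.85 FPKM without. The most negative were Gm10337 (-3.31), Cxcl12 (-2.81), Cyp26a1 (-2.71), Irx3 (-2.46), Irx5 (-2.29), Fabp7 (-2.07), Cldn6 (-1.58) and Lmx1b (-1.50). Fabp7, which moved from 3.69 and 4.77 to 3.03 and 3.06 FPKM with Dex, moved from 8.14 and 6.40 to 25.8 and 25.8 FPKM without. Gm10337 was at 0 in all but 2 of these 8 libraries, and its difference was not called when any 1 of 6 of them was left out (adjusted p = 0.0613 to 0.194), with -1.52 without no Dex day 4 replicate 2 and -1.78 without Dex day 2 replicate 2.

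Against WT the most positive were Otx1 (3.40), Emx2 (3.12), Dkk1 (3.01) and Dmrt3 (2.80). Dmrt3, a transcription factor of the dorsal forebrain, moved from 0.15 and 0.10 to 11 and 12.9 FPKM with Dex and from 0.07 and 0.44 to 0.99 and 1.12 FPKM in WT, and Emx2 moved from 0.32 and 0.16 to 2.02 and 1.27 FPKM in WT. The most negative were Cxcl12 (-2.78), Pou5f1 (-2.22), Pla2g1b (-2.09) and Crb3 (-2.01). Pla2g1b, a secreted phospholipase, moved from 26.0 and 26.0 to 2.31 and 2.78 FPKM with Dex and from 47.8 and 48.8 to 28.5 and 24.6 FPKM in WT.

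Against KO the most positive were Rax (5.27), Fezf1 (4.35), Lhx2 (4.26) and Six3 (3.99), and the most negative were Cyp26a1 (-3.14), Irx5 (-2.97), Irx3 (-2.69) and Fabp7 (-2.69). Irx5 moved from 1.17 and 1.47 to 53.8 and 53.5 FPKM in KO.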

How the results depend on the processing

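The count of called genes from day 2 to day 4, 10860, was 10902 with a pseudocount of 0.1, 11729 with no filter, 10771 rescaled, 9961 with the 2 groups alone and 9860 to 9965 when 1 library was left out. It was 7125 where only genes with a mean of at least 5 FPKM were tested, out of 9412, and 1755 where a change of at least 1 was also asked. The counts of differences from no Dex, WT and KO, 5087, 5689 and 5356, were 184, 320 and 332 with a difference of at least 1, and ranged over 4209 to 4410, 4832 to 5009 and 4405 to 4700 when 1 library was left out. With a replicate block the 4 counts were 10851, 5036, 5624 and 5295. The block is a check of numbering and not of a pairing, since same-numbered duplicates did not deviate together.

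Rescaling gave the other sign for Ccng1 (-0.08), Dnmt1 (-0.01), Gapdh (-0.07), Gpi1 (-0.08), Ldha (-0.06), Mdm2 (-0.1), Sesn2 (-0.09), Slc7a5 (-0.11) and Ythdc1 (-0.02), by its construction. It lowered the median change of all genes by 0.08. Of 567 named genes, 17 to 22 lost their call when 1 library was left out.

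Median changes of lists that turned sign were those of retinal neuron genes (-0.09 to 1.79), extraembryonic endoderm (-0.07 to 0.8) and retinoic acid genes (0.24 to -0.02) with a mean of at least 5 FPKM, of p53 targets (0.05 to -0.06) rescaled, and of immediate early genes (-0.06 to 0.02) without Dex day 4 replicate 1. Depth limits genes under about 0.055 FPKM, the level of 3 fragments on a 2 kb transcript.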

Other observations

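Noncoding RNAs and stress genes give further values of the change from day 2 to day 4 with Dex. Of 18 long noncoding RNAs 7 rose and 8 fell (6 and 8 after rescaling). Lncenc1, expressed in naive stem cells, moved from 30.1 and 29.6 to 2.34 and 2.66 FPKM (-3.14 ± 0.05, adjusted p = 3.64e-20), and Neat1, the scaffold of paraspeckles, moved from 24.0 and 22.4 to 8.06 and 8.27 FPKM (-1.4 ± 0.06, adjusted p = 3.7e-14). Both had days that did not overlap. Malat1 fell from 808 and 787 to 528 and 554 FPKM and Gas5, a host of small nucleolar RNAs, rose from 123 and 120.3 to 216 and 218 FPKM.

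Of 14 genes of the integrated stress response, which ATF4 drives, 7 rose and 3 fell (7 and 5 after rescaling). Atf4 itself moved from 94.6 and 96.3 to 112 and 109 FPKM, and Asns, which makes asparagine, from 88.7 and 93.2 to 125 and 127 FPKM. Nupr1 and Cebpb fell, Nupr1 from 28.3 and 28.7 to 7.14 and 6.71 FPKM (-1.90 ± 0.12, adjusted p = 7.46e-11) and Cebpb from 39.1 and 38.1 to 12.6 and 13.6 FPKM. Vldlr, a lipoprotein and reelin receptor in the same list, rose from 1.92 and 2.04 to 14.0 and 13.8 FPKM (2.33 ± 0.07, adjusted p = 1.18e-15). Of 14 p53 targets 6 rose and 2 fell (6 and 5 after rescaling). Cdkn1a, the cell cycle inhibitor, rose from 27.3 and 28.4 to 43.0 and 42.9 FPKM (0.61 ± 0.06, adjusted p = 3.29e-08), and Bax, which opens mitochondria in cell death, fell from 671 and 668 to 464 and 452 FPKM (-0.55 ± 0.04, adjusted p = 1.29e-09). Of 12 immediate early genes 3 rose and 5 fell (2 and 5 after rescaling), with Egr1 moving from 9.52 and 8.57 to 5.28 and 5.17 FPKM.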
